A study of Mus musculus with 9 samples.

Results

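Plasminogen activation was followed through 8 genes of the mouse genome: the activators Plau and Plat, the urokinase receptor Plaur, the surface partners S100a10 and Anxa2, the inhibitors Serpine2 and Serpinb2, and F3, which starts coagulation. They were found by symbol among the 54532 Ensembl identifiers of the count table, each with 1 identifier. The RNA came from wild type C57/B6 bone marrow neutrophils kept for 12 h in 0.5% FBS. Neutrophils had been sorted by FACS out of co-culture with PyMT-N cells or with PyMT-M cells, or had been kept alone, with 3 libraries in each of the 3 groups. PyMT stands for polyoma middle T antigen, a transgene that gives mice mammary carcinoma; the sources used here give neither the meaning of N and M nor the origin of either line. No label states that cells kept alone were sorted, which means that an effect of sorting and one of co-culture cannot be told apart against them. The sample titles name DMEM for both co-cultures but no medium for cells kept alone. An effect of any difference in medium cannot be told apart from co-culture either. The labels call the replicates biological but do not tie them to separate mice. The p-values thus measure the spread between these libraries, which may or may not be that between mice.

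The plasminogen system turns the circulating zymogen plasminogen into plasmin, a protease that dissolves fibrin and also cuts matrix proteins and the proforms of some metalloproteinases. Urokinase (Plau) and tissue plasminogen activator (Plat) make the cut, the receptor encoded by Plaur holds urokinase at the cell surface, and the heterotetramer of annexin A2 and S100A10 binds plasminogen and tissue activator there. Serpins end the reaction by trapping the activators or plasmin, and tissue factor (F3) works on the opposite side by starting the thrombin cascade that lays fibrin down. Neutrophils are known to carry the urokinase receptor and to use surface proteolysis in migration.

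Where 5 of the 8 genes start was taken from RefSeq promoters of GRCm38.p6: Plaur, Anxa2, Serpine2, Serpinb2 and F3 had an entry. The 250 bases before the start are shown for the inhibitors, because they had the widest differences between the co-cultures, and for F3 and Plaur as genes with other patterns. Each runs 5′ to 3′ on the gene's own strand, and capitals mark every match to a motif searched.
Serpinb2 (first of its 2 starts, chr1:107511173-107511422, forward strand): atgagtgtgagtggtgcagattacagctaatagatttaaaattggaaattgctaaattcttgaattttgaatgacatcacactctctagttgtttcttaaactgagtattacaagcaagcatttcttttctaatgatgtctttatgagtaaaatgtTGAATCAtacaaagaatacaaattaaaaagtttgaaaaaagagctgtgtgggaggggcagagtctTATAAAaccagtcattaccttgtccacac
Serpine2 (chr1:79858666-79858915, reverse strand): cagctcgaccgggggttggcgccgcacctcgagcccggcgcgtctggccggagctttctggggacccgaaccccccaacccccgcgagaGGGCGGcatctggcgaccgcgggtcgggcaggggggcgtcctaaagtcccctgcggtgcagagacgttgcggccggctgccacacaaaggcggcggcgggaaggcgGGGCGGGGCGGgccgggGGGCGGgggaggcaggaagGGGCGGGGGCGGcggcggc
F3 (chr3:121723287-121723536, forward strand): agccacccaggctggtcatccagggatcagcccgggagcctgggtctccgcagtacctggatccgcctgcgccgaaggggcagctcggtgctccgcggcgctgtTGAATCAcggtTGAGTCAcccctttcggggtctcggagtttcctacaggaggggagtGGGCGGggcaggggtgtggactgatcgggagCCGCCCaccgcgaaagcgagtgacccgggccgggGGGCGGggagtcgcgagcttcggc
Plaur (chr7:24462233-24462482, forward strand): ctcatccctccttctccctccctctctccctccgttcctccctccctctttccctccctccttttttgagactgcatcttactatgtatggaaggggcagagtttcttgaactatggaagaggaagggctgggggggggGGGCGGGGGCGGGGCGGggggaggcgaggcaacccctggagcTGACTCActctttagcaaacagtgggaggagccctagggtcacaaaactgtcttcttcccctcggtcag
The inhibitors' windows had no searched motif in common. Serpinb2 held the AP-1 letters TGANTCA from 94 to 88 bases before the start and the TATA letters TATAAA from 29 to 24, while Serpine2 held neither and carried the Sp1 letters GGGCGG at 6 places, some sharing a base. F3 held TGANTCA from 146 to 140 and from 135 to 129 bases before the start, and Plaur held it from 69 to 63. Both also had 3 matches to GGGCGG, and in Plaur those from 105 to 100 and from 100 to 95 share a base. The window of Anxa2, at chr9:69453433-69453682 on the forward strand, held TGANTCA and TATAAA and had 3 matches to GGGCGG. The RefSeq starts are not always the ends of the gene positions given below. The Serpine2 window lies inside that gene's position of 79794197 to 79861180, and the Anxa2 window runs past that gene's first base, 69453620. Windows before other starts of these genes were not searched. Both strands of 32851 windows of the same length were searched, of which 6.75% held TGANTCA, 32.7% GGGCGG and 12.4% TATAAA. TGACGTCA (CRE), GGAATG (TEAD), the ISRE motif and the NF-kB motif were in 1.55%, 12.6%, 2.98% and 3.9% of all windows and in none of the members' windows. A match is only a run of letters, and factor binding was not measured here.

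Library totals ran from 1641049 to 4524563 counts, with 11814 to 17008 genes detected. The share of counts in mt-Rnr2, a mitochondrial ribosomal RNA, moved with the groups: it was 2.65% to 4.005% in the PyMT-N libraries, below all others, 6.12% to 11.1% in the PyMT-M libraries and 5.92% to 12.7% alone. Alone replicate 3 stood apart, with the lowest total, the fewest genes and the highest mt-Rnr2 share. Levels are given as normalised CPM, counts scaled to the library total and by TMM factors, and the limit that a count of 0 allows (3 counts) was 0.573 to 2.26 CPM by library. Such limits and all counting intervals cover counting error only. The defining markers of neutrophils were present in every library. The sum of 13 neutrophil markers was nonetheless 16013 ± 1762 CPM with PyMT-N and 17459 ± 2298 CPM with PyMT-M, against 38860 ± 6563 CPM alone (SD, n = 3 each). Markers of other cells moved with the groups too. The sum of 13 epithelial genes, Cd24a left out because neutrophils express it, was 2660 ± 392 CPM with PyMT-N, 80.9 ± 14.1 CPM with PyMT-M and 13.2 ± 8.63 CPM alone; none of the 13 was at 0 in a PyMT-N library, 4 to 7 were in each PyMT-M library and 7 to 11 in each alone library. The sum of 14 mesenchymal genes was 771 ± 50.1 CPM with PyMT-N, 1345 ± 40.8 CPM with PyMT-M and 165 ± 30.7 CPM alone; 5 to 8 of the 14 were at 0 in each PyMT-N library, 2 to 3 in each PyMT-M library and 5 to 8 in each alone library. Krt18, a keratin of simple epithelia, averaged 332 CPM with PyMT-N, 0.127 with PyMT-M and 0.697 alone, and Sparc, a matrix protein of mesenchymal cells, averaged 68.1 CPM with PyMT-N, 369.7 with PyMT-M and 0.149 alone. The sum of 11 monocyte and macrophage genes was 767 ± 97.3 CPM with PyMT-N, 552 ± 122 CPM with PyMT-M and 1173 ± 247 CPM alone. The sum of 7 B cell markers was 17.1 ± 0.225 CPM with PyMT-N, 98.8 ± 24.2 CPM with PyMT-M and 814 ± 413 CPM alone, and that of 8 eosinophil and basophil markers was 17.6 ± 0.858 CPM with PyMT-N, 7.86 ± 0.852 CPM with PyMT-M and 360.1 ± 58.5 CPM alone. For both lists every alone library was above every co-culture library. The sum of 10 endothelial and platelet markers was 43.7 ± 18.4 CPM with PyMT-N, 9.32 ± 4.32 CPM with PyMT-M and 75.0 ± 61.9 CPM alone. Whether RNA of the tumour cells or of these other cells contributes to any level below was not tested, and in bulk RNA fewer cells of a type and less RNA per cell cannot be told apart.

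**Figure D1:**
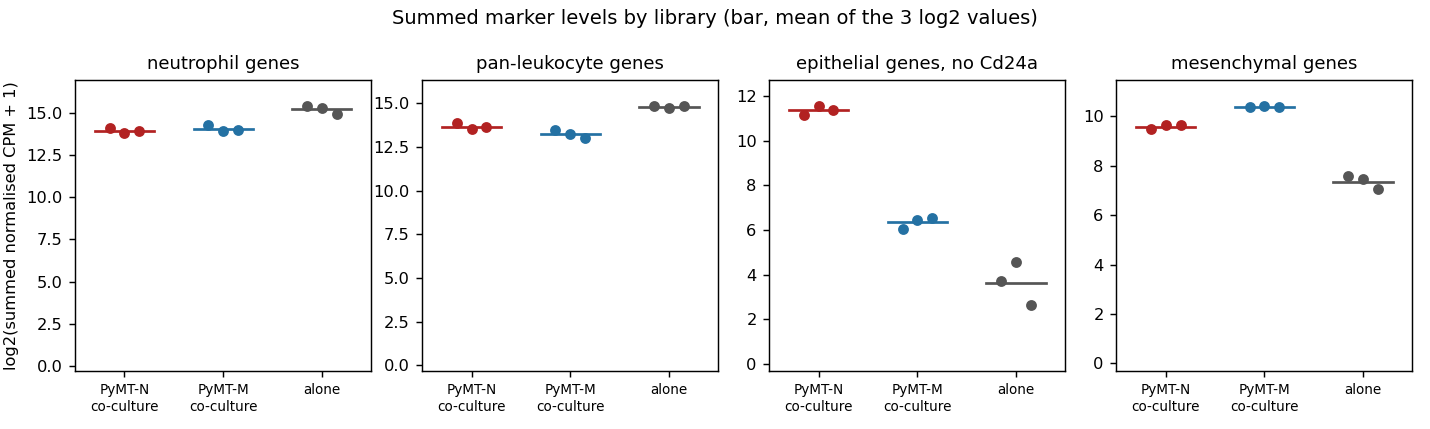
Summed marker levels in each library, as log2(summed normalised CPM + 1), for 13 neutrophil genes, 25 pan-leukocyte genes, 13 epithelial genes and 14 mesenchymal genes; points are libraries and bars the mean of 3 log2 values. Epithelial genes were highest with PyMT-N (2660 CPM on average), mesenchymal genes highest with PyMT-M (1345 CPM), and neutrophil genes highest alone (38860 CPM).

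Across the 3 groups the 8 genes fell into different patterns. Plau, Serpine2 and Serpinb2 were abundant in the PyMT-N libraries and scarce in the other 6, Plat and F3 were at or near 0 alone and present in both co-cultures, S100a10 was higher in both co-cultures, and Plaur and Anxa2 were well expressed in all 9 libraries. The genes were tested in 1 model of all 12012 genes that passed the filter on low counts, with edgeR's quasi-likelihood test, Benjamini-Hochberg adjustment over all those genes and a call at an adjusted p under 0.05. All 8 passed the filter, but only Plaur, S100a10 and Anxa2 lay above its cut of 2.85 CPM in all 9 libraries. The other 5 passed through the libraries in which they were high, so the counts of called genes describe them and support nothing further.

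**Figure D2:**
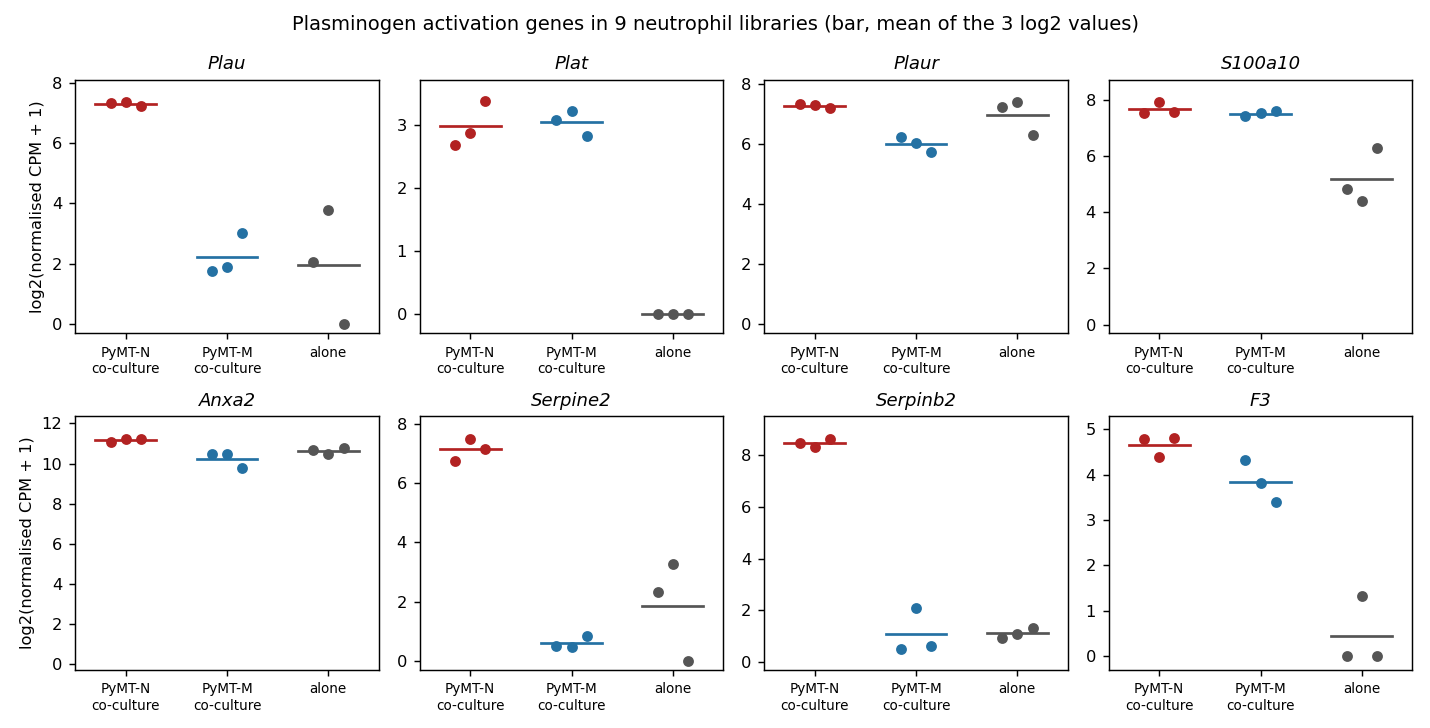
Level of each gene in each of the 9 libraries, as log2(normalised CPM + 1); points are libraries and bars the mean of the 3 log2 values. Plau, Serpine2 and Serpinb2 separate the PyMT-N libraries from the other 6, Plat is at 0 in all 3 alone libraries, and Plaur is lowest in the PyMT-M libraries.

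Urokinase was the activator that differed with the tumour line. Plau, ENSMUSG00000021822 on chromosome 14 at 20836660 to 20843385 (GRCm38, forward strand), had 159.9, 164 and 149 CPM in the PyMT-N libraries, 2.36, 2.67 and 7.19 CPM in the PyMT-M libraries and 3.12, 12.7 and 0 CPM alone. The PyMT-N libraries were all far above the other 6, and the PyMT-M and alone libraries overlapped. On the log2 scale the difference was 4.62 ± 0.45 (SE; adjusted p = 7.94e-07) for PyMT-N against alone and 5.34 ± 0.43 (adjusted p = 1.76e-07) for PyMT-N against PyMT-M. For PyMT-M against alone it was -0.72 ± 0.67 and was not called (adjusted p = 0.378). The alone value leaned on replicate 2, which held 34 of the 41 counts of Plau in that group. Without that library the PyMT-N difference from alone was 6.31 on the log2 scale, and the uncalled PyMT-M difference turned to 0.98. Without PyMT-M replicate 3 the difference between the co-cultures was 5.93.

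Tissue plasminogen activator was scarce and had overlapping levels in the co-cultures. Plat, ENSMUSG00000031538 on chromosome 8 at 22757727 to 22782844 (forward strand), had 5.45, 6.34 and 9.47 CPM with PyMT-N, 7.52, 8.40 and 6.12 CPM with PyMT-M and a count of 0 in each alone library. The co-culture libraries overlapped with each other and lay above all alone libraries. Against a floor of 3 counts over the alone group, Plat was at least 15.2-fold higher with PyMT-N (adjusted p = 5.34e-04) and at least 15.6-fold higher with PyMT-M (adjusted p = 4.53e-04). Between PyMT-N and PyMT-M the log2 fold change was -0.04 ± 0.38 (adjusted p = 0.951), and its sign turned in some other fits. These levels rest on 86 counts with PyMT-N and 102 with PyMT-M in all.

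The urokinase receptor was expressed in neutrophils kept alone and was lowest beside PyMT-M cells. Plaur, ENSMUSG00000046223 on chromosome 7 at 24462484 to 24475968 (forward strand), had 162, 156 and 144 CPM with PyMT-N, 74.2, 64.1 and 51.9 CPM with PyMT-M and 147, 168 and 77.7 CPM alone. All 3 PyMT-M libraries were below the other 6, while the PyMT-N and alone libraries overlapped. The log2 fold change was 1.27 ± 0.24 for PyMT-N against PyMT-M (adjusted p = 7.88e-04) and -1.07 ± 0.25 for PyMT-M against alone (adjusted p = 0.00217). PyMT-N against alone gave 0.20 ± 0.24 and was not called (adjusted p = 0.502); without alone replicate 3 it gave -0.03. The comparisons of Plaur with alone depended on the scaling. Scaled to library totals, PyMT-M against alone gave -0.57 (adjusted p = 0.0733), and scaled to 25 pan-leukocyte genes it gave 0.47 (adjusted p = 0.141), while PyMT-N against alone gave 1.34 under the second scaling (adjusted p = 1.54e-04).

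The ratio of urokinase to its receptor within a library needs no scaling between libraries. Per kilobase of exon, Plau over Plaur was 1.09, 1.16 and 1.14 in the PyMT-N libraries, 0.0353, 0.0461 and 0.153 in the PyMT-M libraries and 0.0234, 0.0837 and 0 alone. The messages were thus about equal per length with PyMT-N, whereas in the other 6 libraries the receptor message exceeded that of the activator.

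S100a10, which encodes the p11 light chain that binds plasminogen, was higher in both co-cultures. S100a10, ENSMUSG00000041959 on chromosome 3 at 93555080 to 93564643 (forward strand), had 182, 239.9 and 187 CPM with PyMT-N, 169, 181 and 191 CPM with PyMT-M and 27.2, 20.2 and 76.9 CPM alone. No co-culture library overlapped with an alone library, and the co-cultures overlapped with each other. On the log2 scale the difference was 2.42 ± 0.34 for PyMT-N against alone (adjusted p = 3.40e-05) and 2.25 ± 0.34 for PyMT-M against alone (adjusted p = 7.28e-05). Between PyMT-N and PyMT-M it was 0.17 ± 0.29 (adjusted p = 0.684), and -0.04 and -0.25 when scaled to library totals and to pan-leukocyte genes. Alone replicate 3 was the highest of its group, and without it the differences from alone were 3.12 with PyMT-N and 2.94 with PyMT-M.

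Anxa2, which encodes the annexin A2 heavy chain of the same complex, was the most abundant of the 8 messages and moved less. Anxa2, ENSMUSG00000032231 on chromosome 9 at 69453620 to 69491795 (forward strand), had 2122, 2399.8 and 2357 CPM with PyMT-N, 1425, 1418 and 888 CPM with PyMT-M and 1658, 1418 and 1726 CPM alone. The PyMT-N libraries were above the other 6, and the PyMT-M and alone libraries overlapped. The log2 fold change was 0.88 ± 0.18 for PyMT-N against PyMT-M (adjusted p = 0.00115) and 0.52 ± 0.18 for PyMT-N against alone (adjusted p = 0.0226). The call against alone was lost without PyMT-N replicate 2 (0.50, adjusted p = 0.0613), PyMT-N replicate 3 (0.52, adjusted p = 0.0622) or alone replicate 2 (0.44, adjusted p = 0.0915). PyMT-M against alone gave -0.36 ± 0.18 and was not called (adjusted p = 0.0941); it gave 0.15 scaled to library totals and 1.19 scaled to pan-leukocyte genes (adjusted p = 4.38e-06). Exons of Anxa2 share 98 bases with an antisense gene, Gm16144, and the sources used here do not state whether counting used the strand.

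The light and heavy chain messages did not keep one ratio. Per kilobase of exon, S100a10 over Anxa2 was 0.264, 0.308 and 0.245 with PyMT-N, 0.364, 0.393 and 0.661 with PyMT-M and 0.0505, 0.0438 and 0.137 alone. All co-culture libraries were above all alone libraries, and all PyMT-M libraries were above all PyMT-N libraries.

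Both inhibitors were high with PyMT-N and scarce elsewhere. Serpine2 encodes protease nexin 1, a secreted and surface-bound serpin that traps thrombin, urokinase and plasmin. Serpine2, ENSMUSG00000026249 on chromosome 1 at 79794197 to 79861180 (reverse strand), had 107, 179.9 and 141 CPM with PyMT-N, 0.430, 0.382 and 0.799 CPM with PyMT-M and 4.01, 8.59 and 0 CPM alone. The PyMT-N libraries were far above all others, the PyMT-M libraries held 2 or 3 counts each, and the alone libraries spanned the PyMT-M range. On the log2 scale the difference was 4.82 ± 0.39 for PyMT-N against alone (adjusted p = 3.74e-08) and 8.02 ± 0.48 for PyMT-N against PyMT-M (adjusted p = 1.56e-09). For PyMT-M against alone it was -3.20 ± 0.87 (adjusted p = 0.00482) although the groups overlapped. That call was lost without alone replicate 2 (-2.20, adjusted p = 0.130), which held 23 of the group's 32 counts, and when scaled to pan-leukocyte genes (-1.72, adjusted p = 0.179). Without the same library PyMT-N against alone was 5.82.

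Serpinb2 encodes plasminogen activator inhibitor 2, a largely intracellular serpin that can trap urokinase and that myeloid and epithelial cells induce under stress. Serpinb2, ENSMUSG00000062345 on chromosome 1 at 107511423 to 107535478 (forward strand), had 357, 318 and 398 CPM with PyMT-N, 0.430, 3.24 and 0.532 CPM with PyMT-M and 0.891, 1.12 and 1.51 CPM alone. Every PyMT-N library was far above the other 6, which overlapped with each other. The log2 fold change was 8.27 ± 0.40 for PyMT-N against alone (adjusted p = 6.50e-11) and 7.84 ± 0.34 for PyMT-N against PyMT-M (adjusted p = 2.90e-11). PyMT-M against alone gave 0.43 ± 0.86 and was not called (adjusted p = 0.689). PyMT-M replicate 2 held 17 of that group's 21 counts; without it PyMT-N against PyMT-M was 9.44 and PyMT-M against alone -1.16. Exons of Serpinb2 share 291 bases with those of Serpinb10 on the same strand, so reads there could be counted for either. Per kilobase, Serpinb2 over Plau was 2.25, 1.96 and 2.70 in the PyMT-N libraries, so the message of the intracellular inhibitor exceeded that of the activator. Serpine2 over Plau was 0.192, 0.314 and 0.271. That ratio rests on the length of all annotated exons together, 8287 bases for Serpine2 and 2367 for Plau. In CPM, without length, the PyMT-N ranges overlapped, with 107, 179.9 and 141 for Serpine2 and 159.9, 164 and 149 for Plau. The order of the secreted inhibitor and the activator thus depends on the length used.

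Tissue factor, the membrane receptor for coagulation factor VII, was present in both co-cultures. F3, ENSMUSG00000028128 on chromosome 3 at 121723537 to 121735048 (forward strand), had 26.7, 19.8 and 26.9 CPM with PyMT-N, 19.1, 12.98 and 9.58 CPM with PyMT-M and 0, 1.49 and 0 CPM alone. All co-culture libraries were above all alone libraries, and the PyMT-N libraries were just above the PyMT-M libraries. On the log2 scale the difference was 5.19 ± 0.71 for PyMT-N against alone (adjusted p = 9.70e-06) and 4.39 ± 0.78 for PyMT-M against alone (adjusted p = 1.49e-04). The alone group held 4 counts of F3, all in replicate 2, so it is at 0 without that library, and both calls held without it. Without alone replicate 1 the differences were 4.58 with PyMT-N and 3.78 with PyMT-M. Between PyMT-N and PyMT-M the log2 fold change was 0.80 ± 0.33 and missed the call (adjusted p = 0.0666). It was called by limma-voom (0.85, adjusted p = 0.0245), in a fit of those 2 groups (0.80, adjusted p = 0.0267), without PyMT-M replicate 1 (1.10, adjusted p = 0.0408) and without alone replicate 3 (0.80, adjusted p = 0.0291).

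Counted over the 8 genes, PyMT-N against alone gave 7 higher and 0 lower, where 29.4% of all tested genes were called higher and 23.6% lower. The uncalled gene was Plaur. PyMT-M against alone gave 3 higher (F3, Plat and S100a10) and 2 lower (Plaur and Serpine2), where 28.2% of tested genes were called higher and 27.9% lower. PyMT-N against PyMT-M gave 5 higher (Anxa2, Plau, Plaur, Serpinb2 and Serpine2) and 0 lower, where 19.1% were called higher and 15.5% lower. In the comparisons of PyMT-N, edgeR at an unadjusted p under 0.05, DESeq2 and limma-voom also found 0 of the 8 lower. The median log2 fold change of the 8 in these 3 comparisons was 4.27 (with Plat at its bound), 0.03 and 1.08; over all tested genes it was 0.12, -0.03 and -0.02. Libraries of the compared groups did not overlap for 7 of the 8 genes with PyMT-N and alone, all higher, for 3 higher and 1 lower with PyMT-M and alone, and for 6, all higher, between the co-cultures, where this held for 56.7%, 57.9% and 52.9% of tested genes in either direction. The first 2 comparisons share the alone libraries, and the comparison between the co-cultures uses the co-culture libraries of both. The counts of the 3 comparisons are therefore not independent.

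**Figure D3:**
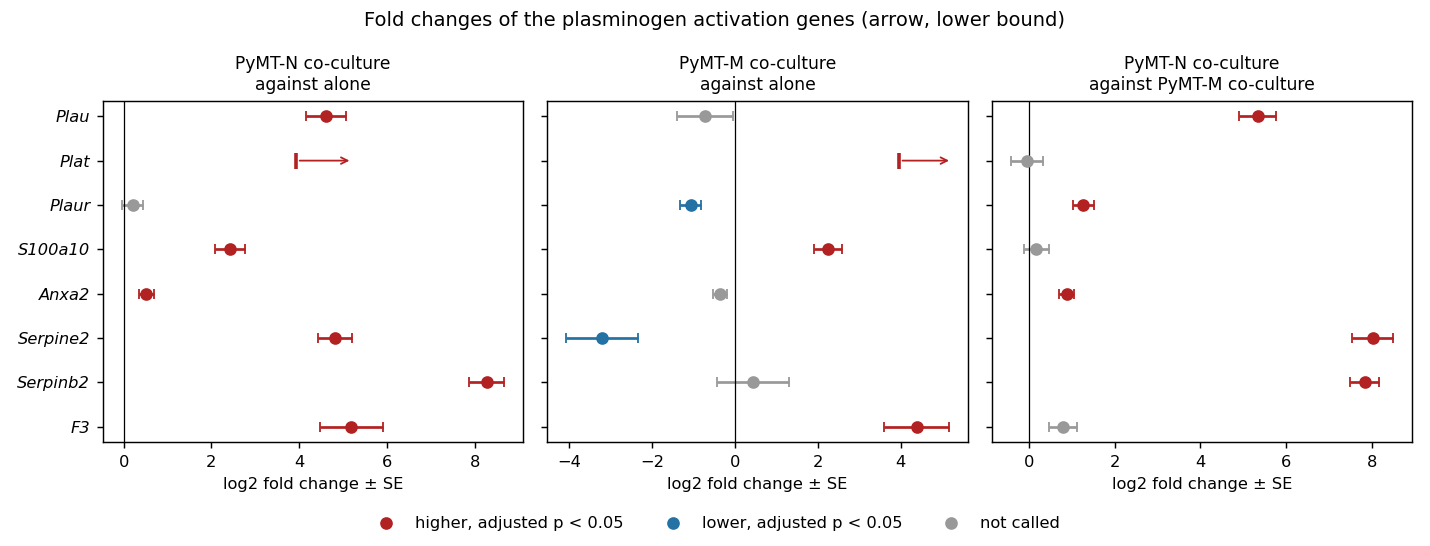
Log2 fold change of each gene, with bars of 1 SE, in the 3 comparisons; red points were called higher, blue points lower and grey points not called, and arrows start at the lower bound of Plat, which had no count alone. Against alone, Plau, Serpine2 and Serpinb2 stand at 4.62, 4.82 and 8.27 with PyMT-N, and Plat and F3 lie on the high side with both lines.

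Those splits moved with the scaling of the libraries. Library totals moved the median of all genes by 0.29, 0.47 and -0.21 on the log2 scale and pan-leukocyte scaling by 1.14, 1.52 and -0.41, in the same order of comparisons. The share of called genes that were higher was 55.5%, 50.2% and 55.2% with TMM, 67.1%, 70.5% and 40.4% with library totals and 89.6%, 97.0% and 30.4% with pan-leukocyte scaling. The 8 genes split 7 higher and 0 lower, 3 and 1, and 5 and 0 with library totals, and 8 and 0, 4 and 0, and 5 and 0 with pan-leukocyte scaling. The comparison of PyMT-N with PyMT-M thus kept 5 genes higher although the scaling lowered its median.

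**Figure D4:**
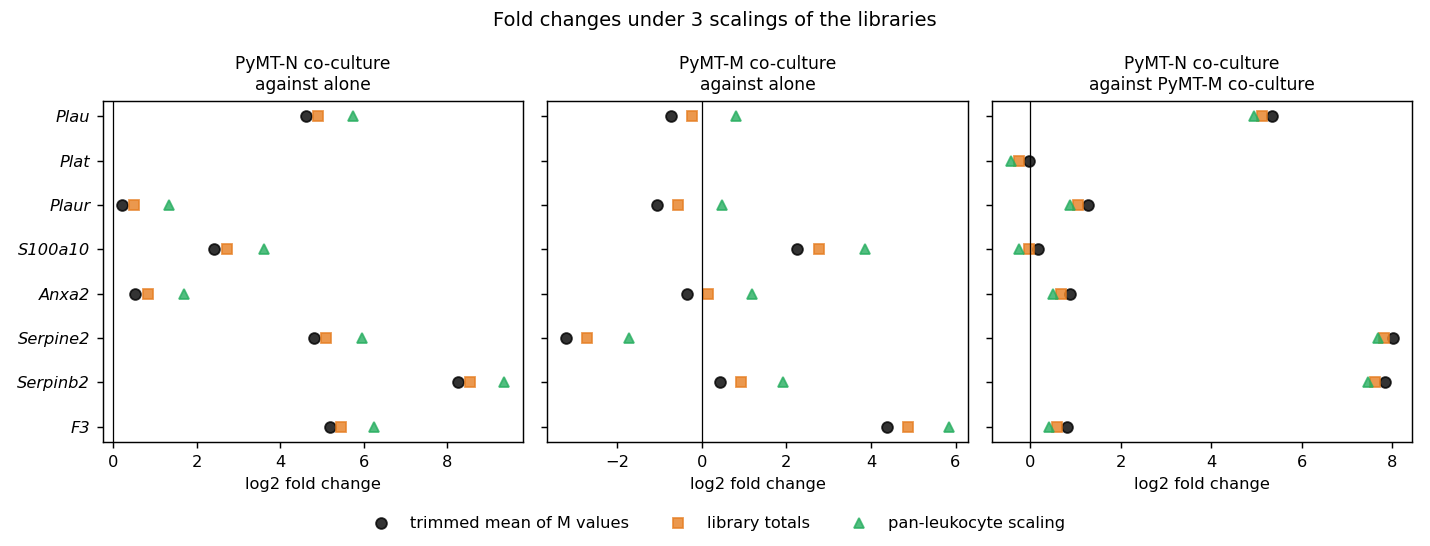
Log2 fold change of each gene under TMM, library totals and pan-leukocyte scaling, by comparison; Plat against alone has no point because that group had no count. Values of Plaur and Anxa2 for PyMT-M against alone lie on both sides of 0, from -1.07 to 0.47 and from -0.36 to 1.19, while Plau, Serpine2 and Serpinb2 stay above 0 in both comparisons of PyMT-N.

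Levels per kilobase of exon divide by the length of all annotated exons together, which is 8287 bases for Serpine2. The order of the genes depends on those lengths. By this measure, Anxa2 was first in every group, at 615 CPM per kb with PyMT-N, 333 with PyMT-M and 429 alone. With PyMT-N it was followed by S100a10 (168) and Serpinb2 (152), whose ranges overlapped, then Plau (66.5), Plaur (58.8), Serpine2 (17.2), F3 (9.69) and Plat (1.14), each separate from its neighbour. With PyMT-M it was followed by S100a10 (149), Plaur (24.2), F3 (5.50 CPM per kb), then Plau (1.72), Plat (1.18) and Serpinb2 (0.597), whose neighbouring ranges overlapped, and Serpine2 (0.0648). Alone, Plaur (50.05) and S100a10 (34.2) overlapped next, and Plau (2.23), Serpine2 (0.507), Serpinb2 (0.4996), F3 (0.197) and Plat (0) overlapped each with the next. The 8 genes summed to 3122 to 3483 CPM in the PyMT-N libraries, 1155 to 1697 in the PyMT-M libraries and 1629.8 to 1882 alone. Anxa2 made up 68.0% to 69.1% of that sum with PyMT-N, 76.9% to 83.9% with PyMT-M and 87.0% to 91.7% alone.

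Pearson's r of log2 levels over the 9 libraries described which messages ran together; the points share 3 groups, so r mostly restates the group pattern. Among the 8 genes, Plau and Serpine2 (r = 0.960), Plat and F3 (0.949), Serpine2 and Serpinb2 (0.912) and Plat and S100a10 (0.910) were the closest pairs, and Plaur with S100a10 was lowest at -0.362. Among 6194 to 6195 other genes of at least moderate level, Serpinb2 ran closest with Nod1 (0.992), a sensor of bacterial peptidoglycan, Pde4b (0.990) and Il1rn (0.989), the interleukin 1 receptor antagonist. Il1rn averaged 6376 CPM with PyMT-N, 345 with PyMT-M and 338 alone. Serpine2 ran with Mdm2 (0.9945), Thbd (0.986) and Rnd1 (0.974), and Tnfrsf23 (0.976) and Relt (0.976) were among the 3 closest to Plau. Plat ran closest with Tjp1 (0.996), a tight junction protein that averaged 85.7 CPM with PyMT-N, 103 with PyMT-M and 0.649 alone, and with Eif4g2 and Mta1. S100a10 ran with Magt1 (0.994), Cnn3 and Cav2, and F3 with Zdhhc21 (0.988), Nckap1 and Dag1. Plaur ran with Fcgr2b (0.985), an Fc receptor of myeloid and B cells that averaged 167 CPM with PyMT-N, 46.3 with PyMT-M and 136 alone, and with Ppp1r21 and Ubb. Anxa2 ran with Myl12a (0.987), a myosin light chain, Tpd52 and Arpc4.

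Around these genes, a list of 71 others covers proteases and zymogens, further inhibitors, receptors, annexins, plasmin targets and coagulation. Of these, 48 were tested, and 8 had no count in any library, among them Plg, the plasminogen gene that the liver expresses, and the fibrinogen chains Fga, Fgb and Fgg. PyMT-N against alone gave 28 higher and 11 lower, PyMT-M against alone 13 higher and 18 lower, and PyMT-N against PyMT-M 27 higher and 5 lower. Of the 48, 58.3% were thus higher and 22.9% lower with PyMT-N than alone, where 29.4% and 23.6% of all tested genes were. With PyMT-M against alone 27.1% were higher and 37.5% lower, where 28.2% and 27.9% of all tested genes were. With PyMT-N against PyMT-M 56.2% were higher and 10.4% lower, where 19.1% and 15.5% of all tested genes were. The shares lower with PyMT-N than alone and higher with PyMT-M than alone lay at those over all tested genes. Some of the 48 passed the filter through the libraries in which they were high, as Tfpi2, St14, F2rl2 and Mmp13 did through those with PyMT-N. The counts of this list, like those of the 8 genes, are therefore only a description. The median log2 fold changes of the list were 1.21, -0.33 and 1.19, with genes at 0 in a group set to their bound, and those of all tested genes 0.12, -0.03 and -0.02. The counts by role that follow stand against the same shares over all tested genes, and each rests on 1 to 13 tested genes. With library totals the splits were 30 and 9, 17 and 14, and 26 and 6, and with pan-leukocyte scaling, whose list shares Itgb2, they were 35 and 4, 27 and 3, and 24 and 9. Without alone replicate 3 they were 30 and 10, 15 and 19, and 33 and 6.

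**Figure D5:**
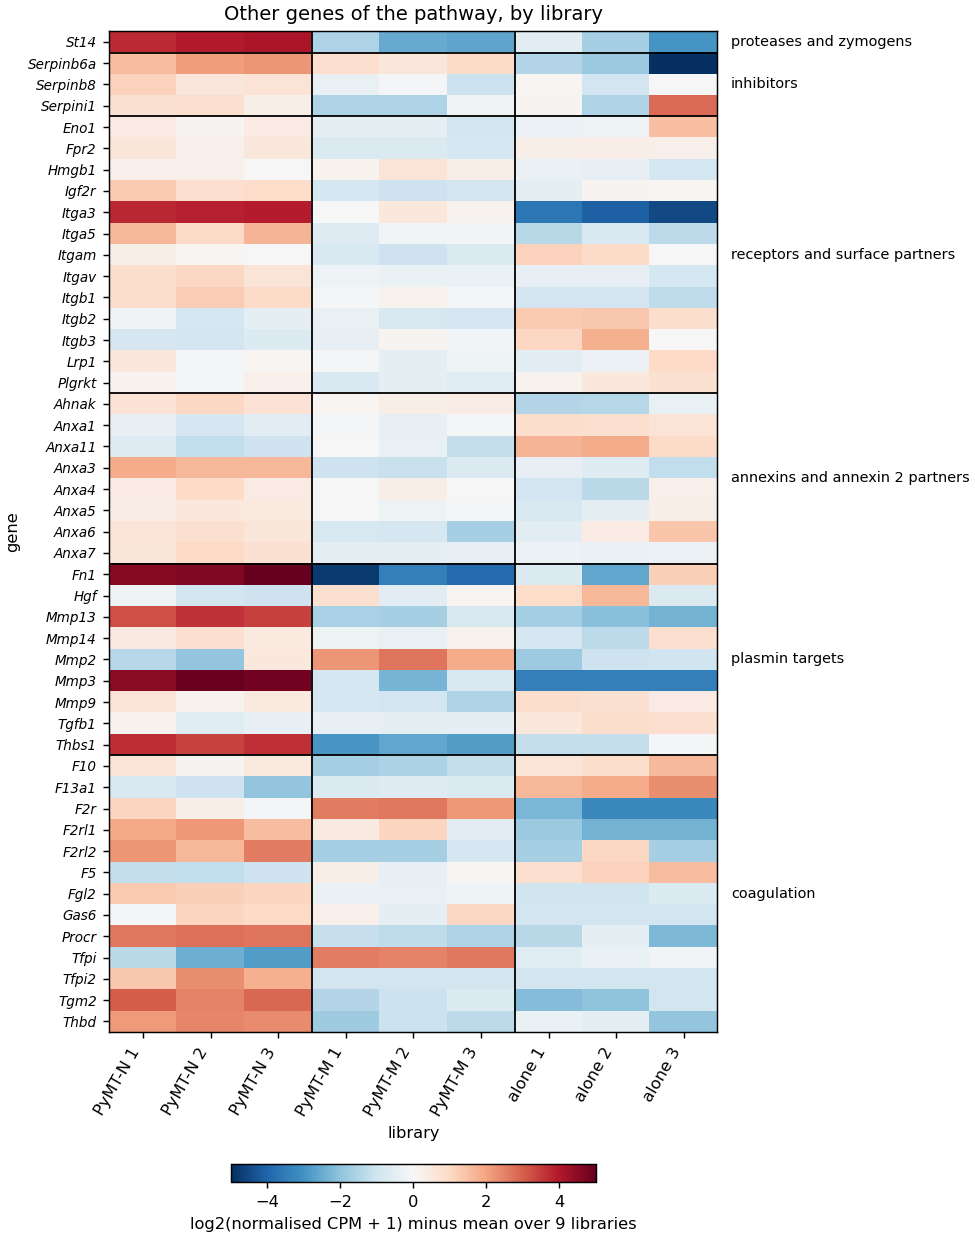
Tested genes of the wider pathway by role, in 9 libraries; colour is log2(normalised CPM + 1) minus the gene's mean over the libraries. St14, Itga3, Mmp13, Mmp3 and Thbs1 are high in the PyMT-N libraries, and Tfpi, F2r and Mmp2 are highest in the PyMT-M libraries.

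Of the 6 proteases and zymogens listed only St14 was tested. It encodes matriptase, a transmembrane protease typical of epithelia, and averaged 119 ± 15.7 CPM with PyMT-N, 0.789 ± 0.808 with PyMT-M and 1.98 ± 2.27 alone (SD, n = 3 each). The log2 fold change was 5.72 against alone (adjusted p = 3.78e-08) and 7.15 against PyMT-M (adjusted p = 4.20e-09).

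Of the other 9 inhibitors 4 were tested, and 3 were higher with PyMT-N than alone. Serpinb6a, an intracellular serpin known to trap cathepsin G, averaged 403 CPM with PyMT-N, 176 with PyMT-M and 21.9 alone and was higher in both co-cultures (4.07 and 2.87 on the log2 scale, adjusted p = 1.14e-06 and 3.37e-05). Serpinb8, another intracellular serpin, was higher with PyMT-N than with PyMT-M (1.33, adjusted p = 0.00808) and than alone (1.14, adjusted p = 0.0273), the second call being lost without PyMT-N replicate 1 (0.96, adjusted p = 0.0905) or alone replicate 2 (0.78, adjusted p = 0.165). Serpini1, neuroserpin, was lower with PyMT-M than alone (-3.46, adjusted p = 0.0375), a call carried by alone replicate 3 at 19.6 CPM and lost without it (-1.14, adjusted p = 0.557), without PyMT-M replicate 1 (-2.88, adjusted p = 0.106) and without PyMT-M replicate 2 (-2.78, adjusted p = 0.117). That call was also lost with relative log expression size factors (-3.36, adjusted p = 0.0529) and with library totals (-2.96, adjusted p = 0.0704). Pan-leukocyte scaling (-1.95, adjusted p = 0.247) and limma-voom (-2.08, adjusted p = 0.131) lost it too.

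Of 13 tested receptors and surface partners, 6 were higher and 3 lower with PyMT-N than alone, 4 higher and 7 lower with PyMT-M than alone, and 8 higher and 0 lower with PyMT-N than with PyMT-M. At an unadjusted p under 0.05 the last split was 9 and 0, and DESeq2 and limma-voom also called 0 lower. By libraries that did not overlap it was 9 higher and 1 lower. The lower gene was Itgb3, with 6.89, 6.61 and 7.96 CPM with PyMT-N and 9.89, 14.7 and 12.0 CPM with PyMT-M. Pan-leukocyte scaling called Itgb3 lower. Itga3, the alpha 3 integrin subunit of laminin receptors, averaged 333 CPM with PyMT-N, 26.3 with PyMT-M and 0.422 alone, where the group held 3 counts; its level ratio to alone was 697 (95% counting interval 238 to 3379) with PyMT-N and 55.4 (18.8 to 269.8) with PyMT-M. Itgb1 and Itga5, subunits of the fibronectin receptor, were higher with PyMT-N than alone by 2.11 and 2.63 on the log2 scale (adjusted p = 2.23e-07 and 6.00e-06). The beta 2 integrin of leukocytes went the other way. Itgb2 averaged 492 CPM with PyMT-N, 437 with PyMT-M and 1575 alone, and was lower with PyMT-M than alone by TMM (-1.85, adjusted p = 4.21e-06) but was not called by pan-leukocyte scaling (-0.30, adjusted p = 0.185). Fpr2, a formyl peptide receptor of neutrophils, averaged 1327 CPM with PyMT-N, 559 with PyMT-M and 1176 alone. It was higher with PyMT-N than with PyMT-M (1.25, adjusted p = 1.09e-05), and PyMT-M against alone gave -1.07 by TMM (adjusted p = 2.89e-05) and 0.50 by pan-leukocyte scaling (adjusted p = 0.0159). Igf2r, a lysosomal sorting receptor that also binds the urokinase receptor, averaged 140.4 CPM with PyMT-N, 35.0 with PyMT-M and 65.5 alone (2.00 for PyMT-N against PyMT-M, adjusted p = 5.96e-06).

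All 8 further annexins and annexin A2 partners were tested; 5 were higher and 2 lower with PyMT-N than alone, 1 higher and 3 lower with PyMT-M than alone, and 3 higher and 0 lower with PyMT-N than with PyMT-M. At an unadjusted p under 0.05 the last split was 5 and 1, and DESeq2 and limma-voom each called 1 lower. Anxa3, an annexin of neutrophil granules in humans, averaged 366 CPM with PyMT-N, 56.9 with PyMT-M and 66.4 alone (2.69 for PyMT-N against PyMT-M, adjusted p = 1.39e-07). Anxa1, the anti-inflammatory annexin of neutrophils, averaged 585.5 CPM with PyMT-N, 766.5 with PyMT-M and 1531 alone, and Anxa11 averaged 15.2 CPM with PyMT-N, 21.8 with PyMT-M and 90.6 alone. Both were lower than alone in each co-culture by TMM, by 1.39 and 2.61 with PyMT-N and by 1.00 and 2.06 with PyMT-M on the log2 scale (adjusted p from 1.07e-04 to 4.74e-06). By pan-leukocyte scaling Anxa1 was not called with PyMT-N (-0.25, adjusted p = 0.260) and was called higher with PyMT-M (0.58, adjusted p = 0.00931), and Anxa11 was not called with PyMT-M (-0.54, adjusted p = 0.137). Anxa7 and Anxa6 were higher with PyMT-N than with PyMT-M (1.26 and 1.81, adjusted p = 1.87e-05 and 0.00198). Ahnak, a giant scaffold protein that binds the S100A10 and annexin A2 complex, averaged 282 CPM with PyMT-N, 187 with PyMT-M and 78.4 alone and was higher with PyMT-M than alone (1.31, adjusted p = 5.78e-04).

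Of 12 plasmin targets 9 were tested; 4 were higher and 2 lower with PyMT-N than alone, 2 higher and 4 lower with PyMT-M than alone, and 5 higher and 1 lower with PyMT-N than with PyMT-M. Mmp3, stromelysin 1, whose proform plasmin can activate, had 239, 323 and 299.6 CPM with PyMT-N, 4.73, 1.15 and 5.06 CPM with PyMT-M and 0 alone, at least 601-fold higher with PyMT-N than alone (adjusted p = 1.73e-08). Mmp13, collagenase 3, averaged 97.7 CPM with PyMT-N, 2.70 with PyMT-M and 1.22 alone (6.22 for PyMT-N against alone, adjusted p = 4.24e-09). Thbs1, thrombospondin 1, averaged 1363 ± 158 CPM with PyMT-N, 15.9 ± 2.02 with PyMT-M and 69.1 ± 34.2 alone. It was higher with PyMT-N than alone (4.36, adjusted p = 6.87e-09) and lower with PyMT-M than alone by TMM (-2.05, adjusted p = 3.83e-05), a difference not called by pan-leukocyte scaling (-0.47, adjusted p = 0.177). Gelatinases had other patterns. Mmp2, gelatinase A of mesenchymal cells, averaged 2.46 CPM with PyMT-N, 23.6 with PyMT-M and 1.15 alone and was higher with PyMT-M than alone (4.37, adjusted p = 7.52e-05). Mmp9, gelatinase B stored in neutrophil granules, averaged 2969.6 CPM with PyMT-N, 996 with PyMT-M and 3492 alone and was lower with PyMT-M than alone by TMM (-1.81, adjusted p = 3.57e-06) but not called by pan-leukocyte scaling (-0.26, adjusted p = 0.191).

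Of 21 coagulation genes 13 were tested; 9 were higher and 4 lower with PyMT-N than alone, 4 higher and 3 lower with PyMT-M than alone, and 8 higher and 3 lower with PyMT-N than with PyMT-M. Procr, the endothelial protein C receptor, averaged 98.3 CPM with PyMT-N, 5.21 with PyMT-M and 5.88 alone (3.89 for PyMT-N against alone, adjusted p = 2.74e-07). Tgm2, tissue transglutaminase, which crosslinks matrix proteins, averaged 101 CPM with PyMT-N, 6.16 with PyMT-M and 3.88 alone (4.88, adjusted p = 1.21e-07). Tfpi, the inhibitor that blocks the tissue factor complex, averaged 0.666 CPM with PyMT-N, 40.1 with PyMT-M and 4.44 alone and was lower with PyMT-N than with PyMT-M (-5.98, adjusted p = 1.42e-07), the opposite order to that of F3 means. F2r, the thrombin receptor PAR1, averaged 12.3 CPM with PyMT-N, 51.4 with PyMT-M and 0.297 alone, where it had 2 counts; its level ratio to alone was 163 (45.1 to 1352) with PyMT-M. F13a1, the factor XIII A subunit, averaged 16.4 CPM with PyMT-N, 23.4 with PyMT-M and 153 alone, and fell by 3.24 with PyMT-N and by 2.69 with PyMT-M on the log2 scale (adjusted p = 4.25e-07 and 2.37e-06). F10, coagulation factor X, averaged 117 CPM with PyMT-N, 30.3 with PyMT-M and 186 alone and was lower with PyMT-M than alone (-2.61, adjusted p = 2.91e-06).

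Beside all of these values stand the marker sums. The libraries that were high in Plau, Serpine2, Serpinb2, St14 and Mmp3 were also the only ones of the 9 with all 13 epithelial genes detected, and those high in F2r, Tfpi and Mmp2 had the highest mesenchymal sum. Epcam, an adhesion molecule of epithelia, had 190.3 CPM with PyMT-N, 1.92 with PyMT-M and 0 alone, and Krt8 had 378 CPM with PyMT-N, 43.5 with PyMT-M and 0.149 alone. Cald1, caldesmon, had 412 CPM with PyMT-N, 143 with PyMT-M and 1.72 alone, an order of the co-cultures opposite to that of its mesenchymal list. The part of tumour-cell RNA in these differences, and that of the cells behind the B cell, eosinophil and basophil markers, was not tested.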

How the data were processed

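Bulk RNA of 9 neutrophil libraries was sequenced after RNeasy Micro extraction, with QIAseq FX Single Cell libraries built on 150 pg each, per the labels' protocols. The deposited values were raw counts per Ensembl gene, made by the authors with STAR, and GRCm38 and mm10 are the builds listed, per the submitters' processing notes; the counting tool, strand use and gene models are among the details not given in the sources used here. Symbols, positions and exon lengths came from GENCODE M21 (GRCm38) and named 54409 of 54532 identifiers, leaving 123 without a symbol.

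Low counts were removed by filterByExpr in edgeR 4.0.16 (at least 10 counts, 15 in total), and the rest scaled by TMM and fitted in 1 model with a mean per group by the robust quasi-likelihood method, legacy estimation off, in R 4.3.3. The SE of a fold change is its size over the root of F. Two-sided p-values were adjusted over the 12012 tested genes. Alternatives were other size factors, the summed counts of 25 pan-leukocyte genes, no filter or 50 counts in 3 libraries, DESeq2 1.42.0, limma-voom 3.58.1 with sample weights, a fit of only the groups compared, a replicate block, stricter thresholds and each library left out. The code was tested on simulated data. Every pair of libraries within a group differed beyond sampling noise (chi-square per degree of freedom at least 6.31). A fold against a group without counts is a bound against 3 counts over that group; with 1 to 3 counts the ratio has an exact 95% counting interval.

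The members, the lists of other genes and markers, and the alternatives were chosen with earlier results of these data known. Named beside the members were, for each role and comparison, up to 3 tested genes of smallest p; the 3 genes closest to each member by r (log2 CPM, prior count 2, mean log2 CPM of at least 4); and Krt8, Krt18, Epcam, Sparc and Cald1. Some genes that met this rule are not reported here. The series was analysed here in its neutrophil co-culture table alone.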

Additional observations from a re-analysis of the deposited data

Results flagged for a closer look

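The direct contrast of the co-cultures was called for 5 of the 8 genes, all higher, where 19.1% of all tested genes were called higher and 15.5% lower; 3 of the 5 passed the filter through the libraries in which they were high, so the count is only a description. PyMT-N minus PyMT-M was 8.02 on the log2 scale for Serpine2, 7.84 for Serpinb2, 5.34 for Plau, 1.27 for Plaur and 0.88 for Anxa2. In each of the 5 all 3 PyMT-N libraries were above all 3 PyMT-M libraries, a separation that 52.9% of all tested genes showed in one direction or the other. For Serpine2 the 3 PyMT-M libraries together held 7 counts and for Serpinb2 21. The epithelial sum without Cd24a moved with these genes (2660 CPM with PyMT-N, 80.9 CPM with PyMT-M), and its part in them was not tested.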

How the results depend on the processing

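Relative log expression and upper quartile size factors, DESeq2 and no filter changed no call or direction among the 24 fold changes of the 8 genes. Library totals made PyMT-M against alone 0.15 for Anxa2 and left 1 of the 8 lower, against 2 by TMM; they made PyMT-N against PyMT-M -0.037 for S100a10. Pan-leukocyte scaling turned PyMT-M against alone to 0.80 for Plau, 0.47 for Plaur, 1.19 for Anxa2, 0.057 for St14, 0.50 for Fpr2 and 0.58 for Anxa1 and left 0 of the 8 lower, since this scaling raises every fold change of that comparison; it made PyMT-N against PyMT-M -0.25 for S100a10. In the pathway list it gave 4 lower (11 by TMM) for PyMT-N against alone, 27 higher (13) and 3 lower (18) for PyMT-M against alone, and 9 lower (5) for PyMT-N against PyMT-M. A fit of only the groups compared gave 7 lower pathway genes for PyMT-N against alone, and 1 of the 8 lower for PyMT-M against alone, where Serpine2 and Serpinb2 failed the filter; an adjusted p under 0.01 gave 7 lower pathway genes with PyMT-N too. Limma-voom turned uncalled values, Plaur with PyMT-N against alone to -0.019 and Plat between the co-cultures to 0.045; the cause was not tested. With single libraries left out, 7 to 10 pathway genes were lower with PyMT-N than alone and 1 to 2 of the 8 lower with PyMT-M than alone. Uncalled values also crossed 0 when single libraries were left out, from -0.032 to 0.42 for Plaur with PyMT-N against alone, from -1.31 to 0.98 for Plau and from -1.16 to 0.89 for Serpinb2 with PyMT-M against alone, and from -0.33 to 0.11 for Plat between the co-cultures. Column names of the counts share a number across the groups for each replicate, and the sources used here do not say what it stands for. Deviations of same-numbered libraries from their group means correlated at -0.078 to 0.029. No shared effect was thus seen, but so few libraries per group cannot decide whether they were paired. With the replicate number as a block, no call of the 8 genes changed, and the log2 fold change of Plau with PyMT-N against PyMT-M was 5.35 (adjusted p = 1.23e-06). A filter of 50 counts in 3 libraries dropped Plat. At library totals of 1641049 to 4524563 counts, values of 0 to about 2 CPM rest on a few counts.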
